A study of Homo sapiens with 12 samples.

Results

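The genes of the lysosome were followed in 2 melanoma cell lines that carry a BRAF mutation, COLO858 and MMACSF, before and after treatment with the RAF inhibitor vemurafenib. The set was a list of 52 symbols, out of 23273 genes in the expression tables, that covers lysosomal hydrolases, lysosomal membrane proteins, subunits of the vacuolar proton pump (V-ATPase), the transcription factors TFEB and TFE3, and 3 genes of lysosomal cargo or secreted glycoproteins. Members were taken by symbol, and the list was chosen with earlier results of these data known. All 52 symbols were present, and a member was counted as measured in a line where its mean reached 1 FPKM (fragments relative to transcript length and to all mapped fragments of the library) in at least 1 group. By this rule 50 members were measured in COLO858 and 51 in MMACSF. Cathepsin S (CTSS), a protease best known from antigen-presenting cells, stayed under 1 FPKM in COLO858, at 0.171 to 0.607 FPKM across its 6 libraries.

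The lysosome is the acidic compartment in which proteins, lipids, and sugar chains are taken apart. Its hydrolases need low pH, which the V-ATPase supplies by pumping protons across the membrane, with a V1 sector that splits ATP in the cytosol and a V0 sector that carries the protons. TFEB and TFE3 belong to the same helix-loop-helix family as MITF, the lineage factor of melanocytes, and they bind a palindromic E-box that is found near the start of many lysosomal genes. In pigment cells some lysosomal proteins are shared with the melanosome, an organelle that arises from the same endosomal route.

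There were 12 libraries in 6 groups of 2. For each line, cells were cultured with the vehicle DMSO, with 0.2 μM vemurafenib for 24 h, or with 0.2 μM vemurafenib for 48 h, and each replicate was a plate of the same line. The labels do not say for how long the DMSO plates were cultured, and both time points were compared with the same 2 DMSO libraries. The 2 lines grew in different media, DMEM/F12 for MMACSF and RPMI for COLO858, and each line is a single model, so the spread between libraries is that between plates and not between patients. The tables of the 2 lines may have been scaled separately, hence levels are given within a line and lines are compared only by their changes from DMSO.

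Promoter sequences are shown first for members picked by hand, because the motif of the TFEB family can be read in them directly. Holders of that motif make up more of this pick than of all members searched. Some members with changes described below, such as SMPD1 and CTSB, are not shown. The sequences are the 100 bases before the annotated start, from RefSeq on GRCh38.p14 and read 5′ to 3′ on the strand of the gene. Capitals mark the palindromes GTCACGTGAC, TCACGTGA, and CACGTG, which are nested in each other, and the E-box CATGTG, each searched on both strands, so that CATGTG appears as CACATG where it lies on the other strand.
MCOLN1 (chr19:7522524-7522623, plus strand): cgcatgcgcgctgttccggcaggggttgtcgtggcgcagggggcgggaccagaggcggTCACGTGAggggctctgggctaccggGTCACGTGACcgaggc
GAA (chr17:80101481-80101580, plus strand): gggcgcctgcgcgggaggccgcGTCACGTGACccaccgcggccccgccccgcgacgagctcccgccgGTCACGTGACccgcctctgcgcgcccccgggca
ATP6V1G1 (chr9:114587669-114587768, plus strand): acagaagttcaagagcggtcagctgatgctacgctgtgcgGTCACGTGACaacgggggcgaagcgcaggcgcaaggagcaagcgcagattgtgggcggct
ATP6V0D1 (chr16:67481158-67481257, minus strand): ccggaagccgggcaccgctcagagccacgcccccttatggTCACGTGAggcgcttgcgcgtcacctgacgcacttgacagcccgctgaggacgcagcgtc
LAMP1 (chr13:113297139-113297238, plus strand): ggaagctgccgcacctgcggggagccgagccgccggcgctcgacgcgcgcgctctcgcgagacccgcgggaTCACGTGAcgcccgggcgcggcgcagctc
CTSA (chr20:45891235-45891334, plus strand): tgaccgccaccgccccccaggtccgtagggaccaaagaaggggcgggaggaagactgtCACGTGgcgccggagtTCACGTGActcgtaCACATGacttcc
CTSF (chr11:66568607-66568706, minus strand): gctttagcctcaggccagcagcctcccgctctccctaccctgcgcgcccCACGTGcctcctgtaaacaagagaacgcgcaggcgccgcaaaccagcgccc
GPNMB (chr7:23246675-23246774, plus strand): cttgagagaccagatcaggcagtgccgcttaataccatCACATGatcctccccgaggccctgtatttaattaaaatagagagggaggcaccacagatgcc
SQSTM1 (chr5:179806293-179806392, plus strand): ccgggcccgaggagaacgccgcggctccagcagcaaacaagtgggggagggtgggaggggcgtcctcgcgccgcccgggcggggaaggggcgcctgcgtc
CTSZ (chr20:59007255-59007354, minus strand): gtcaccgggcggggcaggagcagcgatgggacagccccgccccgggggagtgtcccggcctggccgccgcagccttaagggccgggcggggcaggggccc
MCOLN1 (a lysosomal calcium channel) and GAA (acid alpha-glucosidase, which breaks down glycogen) each held 2 copies of TCACGTGA in these windows. For SQSTM1 the table lists 3 starts, of which the first is printed, and neither this window nor that of CTSZ held any of the 4 motifs.

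In the longer windows of the table, 250 bases before to 50 bases after each start, 38 members had an entry. The 10-base GTCACGTGAC was found in 3 of these members (7.89%) and in 0.421% of all 27305 genes with an entry. TCACGTGA was found in 7 members (18.4%), namely LAMP1, GAA, CTSA, ATP6V0D1, ATP6V1G1, MCOLN1, and CLN3, and in 1.18% of all genes. The core CACGTG was found in 12 members (31.6%) against 8.77% of all genes. CATGTG was found in 9 members (23.7%) against 13.4% of all genes. These are matches of letters and not mapped binding sites.

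Of the whole series, the following facts bear on the lysosomal genes. The sum of FPKM per library was 670310 to 1013040, of which the small RNA gene MIR4461 took 14.1% to 19.0% in the replicate 1 libraries and 25.8% to 43.4% in the replicate 2 libraries. Levels followed the replicate number: 22 of 50 members were higher in the replicate 1 library and 17 were higher in the replicate 2 library in all 6 groups, which is 78.0% of the members against 59.1% of 11700 genes. Replicates of a group nonetheless correlated at 0.989 to 0.993 across the measured members, a description across genes, which are not independent. Melanocyte lineage markers were present, with 7 of 8 at 1 FPKM or more in COLO858, where MLANA was the exception, and 8 of 8 in MMACSF. Of 8 macrophage and leukocyte markers, 0 reached 1 FPKM in any library, and 3 were at 0 in every COLO858 library and 6 in every MMACSF library.

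Changes were fitted with limma on log2(FPKM + 1) in each line over all genes, and a gene was called at an adjusted p < 0.01 (Benjamini-Hochberg, two-sided). At 24 h in COLO858, 5 of 50 measured members were called higher and 0 lower, whereas 4.11% of all 12696 genes were called higher and 5.71% lower. At the looser threshold of 0.05, 13 were higher and 1 lower, against 12.4% and 13.4% of all genes. The median change of the members was 0.37 on the log2 scale against 0.06 over all genes, and 39 of 50 (78.0%) lay above 0 against 53.8% of all genes. In 32 members (64.0%) both treated libraries exceeded both DMSO libraries, and in 7 (14.0%) both lay below them, where all genes gave 34.1% and 29.0%.

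At 48 h in COLO858, 4 members were called higher and 1 lower, against 4.74% and 4.73% of all genes. At 0.05 the counts were 17 higher and 3 lower, against 12.3% and 13.7%. The median was 0.42 against -0.01 over all genes, with 36 of 50 members (72.0%) above 0 against 48.7% of genes. Libraries were separated upwards in 27 members (54.0%) and downwards in 8 (16.0%), against 29.9% and 31.4% of genes. Between 24 h and 48 h, 0 members were called, against 1.38% of genes, and 9 had an unadjusted p under 0.05 in the limma fit, beside 20.1% of genes. At 0.01 the share of members called in either direction was 10.0% in both comparisons with DMSO. All genes gave 4.11% higher and 5.71% lower at 24 h, and 4.74% and 4.73% at 48 h. Taken over both directions, the calls did not set the members apart from all genes. By count above 0 and by median, the members nonetheless lay higher as a group in COLO858 at both times.

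In MMACSF the members did not stand apart from other genes in this way. At 24 h, 3 of 51 were called higher and 1 lower, against 2.22% and 3.60% of 12599 genes, and at 0.05 the counts were 5 and 5, against 10.1% and 10.2%. The median was 0.13 against 0.07, with 31 of 51 (60.8%) above 0 against 55.8% of genes. At 48 h, 1 was called higher and 2 lower, against 3.42% and 5.41%, and at 0.05 the counts were 5 and 8, against 11.7% and 12.5%. The median at 48 h was -0.00 against 0.06, with 25 of 51 (49.0%) above 0 against 54.6%. Both treated libraries lay above both DMSO libraries in 18 members at each time (35.3%, with 34.0% and 35.7% of genes) and below them in 13 and 12 (25.5% and 23.5%, with 25.8% and 28.8% of genes). Between 24 h and 48 h, 0 members were called, against 0.222% of genes, and 6 had an unadjusted p under 0.05 in the limma fit, beside 6.98% of genes.

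These calls within a line rest on 6 libraries. Fits without 1 of these leave a group of 1 library. Calls over all genes then fell along with those of the members, so the 0 below does not set the members apart. Leaving out any 1 of the 4 libraries of a comparison with DMSO, whether treated or DMSO, left 0 members called in either line, and the members with an unadjusted p under 0.05 then numbered 16 to 18 at 24 h and 20 to 23 at 48 h in COLO858, and 11 to 17 and 13 to 19 in MMACSF. Over all genes that share was 28.9% to 34.0% and 30.3% to 31.3% in COLO858, and 27.3% to 32.1% and 27.7% to 30.8% in MMACSF. In bulk RNA, a change in the share of cells that express a gene and a change in RNA per cell cannot be told apart.

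**Figure D1:**
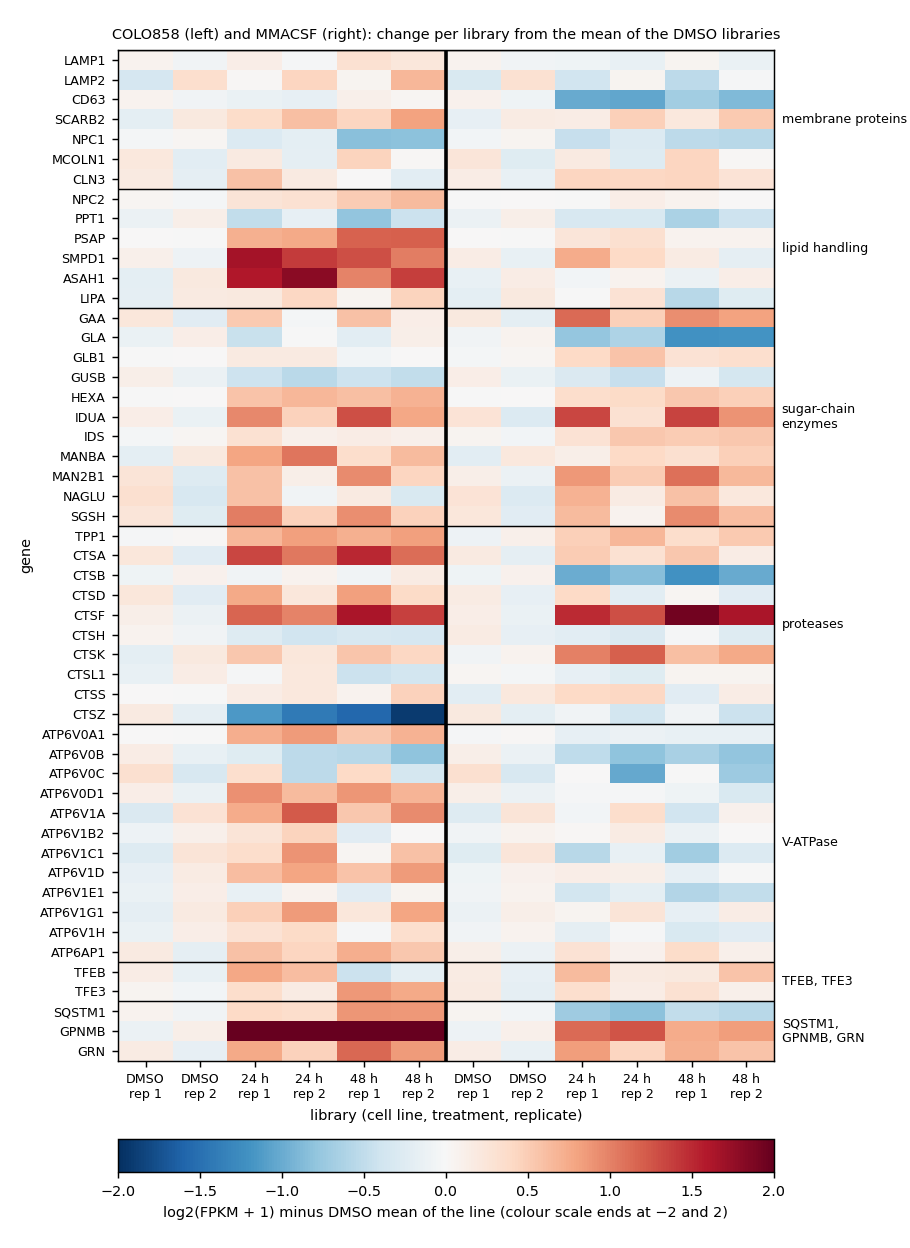
Each row is 1 of 51 lysosomal genes, ordered by role, and each column 1 of the 12 libraries. Colour gives log2(FPKM + 1) minus the mean of the 2 DMSO libraries of the line, red above and blue below, with the scale ending at -2 and 2, and the COLO858 side holds more red rows than the MMACSF side while GPNMB and CTSF are red in both.

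The transcription factors were present at low to moderate levels and none was called. TFEB stood at 2.09 and 1.54 FPKM in the COLO858 DMSO libraries, at 3.78 and 3.29 at 24 h, and at 1.09 and 1.45 at 48 h. Thus both 24 h libraries lay above, and both 48 h libraries below, the DMSO pair. The fitted change was 0.69 ± 0.18 (SE) at 24 h (limma, adjusted p = 0.0417) and -0.31 ± 0.18 at 48 h (adjusted p = 0.262). From 24 h to 48 h TFEB dropped by 1.00 on the log2 scale (limma, adjusted p = 0.0386), past the 0.05 threshold and short of 0.01. In MMACSF TFEB was at 1.25 and 0.779 FPKM in DMSO, 2.10 and 1.27 at 24 h, and 1.29 and 1.98 at 48 h, so all 4 treated libraries lay above the DMSO pair, some of them just above it, and the changes were 0.41 ± 0.25 and 0.39 ± 0.25.

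TFE3 moved on a different course from TFEB in COLO858. It stood at 13.4 and 12.3 FPKM in DMSO, at 16.6 and 14.5 at 24 h, and at 24.3 and 22.5 at 48 h, a mean 1.82 times that in DMSO. The change at 48 h was 0.82 ± 0.14 (limma, adjusted p = 0.0146), short of the 0.01 threshold although the groups did not overlap. In MMACSF it was at 9.95 and 7.46 FPKM in DMSO and at 9.28 to 11.2 across the 4 treated libraries, with changes of 0.24 ± 0.19 and 0.20 ± 0.19. For reference, MITF was at 56.2 and 79.2 FPKM in COLO858 DMSO, 93.0 and 125 at 24 h, and 57.0 and 77.6 at 48 h, with a 24 h change of 0.68 ± 0.26 (adjusted p = 0.117). In MMACSF MITF was at 174 and 244 FPKM in DMSO and at 195 to 268 across the treated libraries. The difference between lines was not called for any of the 3 factors at either time.

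The 7 genes that hold TCACGTGA in the promoter window were set beside the other members. Their median change in COLO858 was 0.39 at 24 h, with 7 of 7 above 0, beside 0.29 for the 30 other measured members with an entry, of which 20 lay above 0. At 48 h the medians were 0.36 and 0.41. In MMACSF the medians were 0.16 and 0.11 at 24 h and 0.23 and -0.05 at 48 h. None of the 7 holders of this 8-base palindrome was called in any comparison with DMSO or between lines. Called members that lack it include GPNMB, which holds CATGTG, and CTSF, which holds CACGTG, both called higher. CTSZ, called lower, holds none of the motifs in the window shown. Members without an entry could not be searched. No test was made of these groups.

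Among the 7 membrane proteins 0 were called in COLO858 at either time, and 1, CD63, fell in MMACSF. CD63 is a tetraspanin of late endosomes, lysosomes, and melanosomes (GRCh37 chr12:56119107-56123491). In MMACSF it stood at 2856 and 2509 FPKM in DMSO, at 1336 and 1306 at 24 h, and at 1657 and 1455 at 48 h, hence the most abundant member of untreated MMACSF fell to 0.493 of its DMSO mean. The change was -1.02 ± 0.13 at 24 h (limma, adjusted p = 0.00769) and -0.79 ± 0.13 at 48 h (adjusted p = 0.0124). In COLO858 the same gene was at 886 and 801 FPKM in DMSO, 766 and 749 at 24 h, and 909 and 865 at 48 h, with changes of -0.15 and 0.07.

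LAMP1, the major glycoprotein of the lysosomal membrane, differed little in any group. It was at 147 and 133 FPKM in COLO858 DMSO, 153 and 138 at 24 h, and 173 and 163 at 48 h, and in MMACSF all 6 libraries lay between 100 and 117 FPKM. The changes ran from -0.12 to 0.27, with standard errors of 0.12 to 0.13. MCOLN1 was likewise near its DMSO level, at 21.7 and 16.1 FPKM in COLO858 DMSO, 21.4 and 16.5 at 24 h, and 25.9 and 19.0 at 48 h, and at 21.0 and 14.6, 20.0 and 14.6, and 24.1 and 17.9 FPKM in MMACSF. Here the replicates lay further apart than the groups, with changes of 0.01 and 0.23 in COLO858 and -0.03 and 0.23 in MMACSF. NPC1, which moves cholesterol out of the lysosome, was at 16.3 and 17.2 FPKM in COLO858 DMSO, 13.7 and 14.5 at 24 h, and 8.99 and 9.01 at 48 h, and at 22.6 and 24.5, 16.8 and 19.3, and 16.1 and 15.7 FPKM in MMACSF. It was lower at 48 h in both lines, in COLO858 (-0.83 ± 0.13, limma adjusted p = 0.0107) and in MMACSF (-0.54 ± 0.13, adjusted p = 0.0357), both past 0.05 and short of 0.01. SCARB2, the sorting receptor of glucocerebrosidase, was at 45.4 and 59.6 FPKM in COLO858 DMSO, 67.3 and 79.1 at 24 h, and 70.5 and 91.6 at 48 h, and at 33.3 and 41.9, 41.3 and 52.3, and 43.6 and 54.2 FPKM in MMACSF. It changed by 0.48 and 0.62 in COLO858, and by 0.31 and 0.37 in MMACSF, all short of 0.05 after adjustment.

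Calls among the genes of lipid breakdown were made in COLO858. Of 6 members, 3 were called higher in COLO858 at 24 h (ASAH1, SMPD1, and PSAP) and 1 at 48 h (PSAP), beside 4.11% and 4.74% of all genes. In MMACSF 0 were called, where 2.22% and 3.42% of all genes were called higher, so 0 of 6 is near that share. The same shares stand beside the counts of the other groups of members. The difference between lines was called for ASAH1 at 24 h and PSAP at 48 h, and at neither time for SMPD1. Prosaposin (PSAP), the precursor of the saposins that present sphingolipids to their hydrolases (GRCh37 chr10:73576055-73611008), stood at 494 and 486 FPKM in COLO858 DMSO, at 799 and 831 at 24 h, and at 1110 and 1122 at 48 h. The pairs were tight and fully separated, and the change was 0.73 ± 0.096 at 24 h (limma, adjusted p = 0.00633) and 1.19 ± 0.096 at 48 h (adjusted p = 0.00188). In MMACSF PSAP was at 1102 and 1083 FPKM in DMSO, 1285 and 1357 at 24 h, and 1147 and 1152 at 48 h, with changes of 0.27 and 0.07.

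Acid ceramidase (ASAH1), which releases sphingosine from ceramide, was at 46.8 and 61.7 FPKM in COLO858 DMSO, 166 and 191 at 24 h, and 108 and 141 at 48 h. It rose 3.29-fold at 24 h (1.71 ± 0.21, limma adjusted p = 0.00523), and at 48 h the change of 1.19 ± 0.21 had an adjusted p of 0.0147. In MMACSF ASAH1 lay between 265 and 328 FPKM in all 6 libraries, and its changes were 0.01 and 0.01. Acid sphingomyelinase (SMPD1; GRCh37 chr11:6411670-6416228), which makes ceramide from sphingomyelin, was at 29.5 and 25.3 FPKM in COLO858 DMSO, 88.8 and 73.3 at 24 h, and 67.9 and 56.2 at 48 h. Its change was 1.53 ± 0.18 at 24 h (adjusted p = 0.00447) and 1.15 ± 0.18 at 48 h (adjusted p = 0.0102). Both ceramide enzymes were thus highest at 24 h, whereas PSAP was highest at 48 h. In MMACSF SMPD1 was at 81.6 and 66.8 FPKM in DMSO, 124 and 97.4 at 24 h, and 82.6 and 65.3 at 48 h, with changes of 0.57 ± 0.20 and -0.01 ± 0.20.

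The other lipid members gave smaller values. NPC2, the soluble partner of NPC1, changed by 0.28 and 0.57 in COLO858, with an adjusted p of 0.0204 at 48 h in limma, and by 0.06 and 0.04 in MMACSF. PPT1, which removes palmitate from proteins, was at 76.8 and 90.2 FPKM in COLO858 DMSO, 58.6 and 74.0 at 24 h, and 47.8 and 61.4 at 48 h, and at 90.5 and 107, 79.1 and 79.6, and 63.4 and 73.5 FPKM in MMACSF. All treated libraries thus lay below DMSO, with changes of -0.33 and -0.61 in COLO858 and of -0.31 and -0.52 in MMACSF, where the 48 h value had an adjusted p of 0.0460. LIPA, the acid lipase for cholesteryl esters, changed by 0.31 and 0.25 in COLO858 and by 0.13 and -0.40 in MMACSF. LIPA overlaps IFIT2 and IFIT3 on the opposite strand, and as the strand setting of the counting is not given, reads of the 2 strands may be mixed. The same limit holds for NPC2, which overlaps ISCA2 on the opposite strand. MCOLN1 overlaps PNPLA6 on its own strand, where no strand setting could part the reads.

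Enzymes that take apart sugar chains numbered 12, of which 11 were measured, and only 1 call was made among them in the comparisons with DMSO. This was GLA (alpha-galactosidase A) in MMACSF, at 28.5 and 31.9 FPKM in DMSO, 17.1 and 19.3 at 24 h, and 12.4 and 12.6 at 48 h. The 48 h pair lay below the 24 h pair, and that below DMSO, with -0.70 ± 0.13 at 24 h (limma, adjusted p = 0.0202) and -1.21 ± 0.13 at 48 h (adjusted p = 0.00399). In COLO858 GLA lay between 17.0 and 25.8 FPKM throughout, with changes of -0.23 and -0.05. GLA overlaps RPL36A on the opposite strand.

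The sugar-chain enzymes lay mostly above DMSO in both lines. Of 11 measured, GLA included, 9 were higher at 24 h and 7 at 48 h in COLO858, with medians of 0.26 and 0.36. Over all genes 53.8% and 48.7% lay above 0 there. In MMACSF 9 were higher at each time, with medians of 0.41 and 0.51, beside 55.8% and 54.6% of all genes. IDUA, which acts on heparan and dermatan sulfate, was at 0.745 and 0.445 FPKM in COLO858 DMSO, 2.11 and 1.19 at 24 h, and 2.88 and 1.72 at 48 h (1.03 ± 0.27, limma adjusted p = 0.0439). In MMACSF IDUA was at 4.52 and 2.77 FPKM in DMSO, 10.5 and 4.64 at 24 h, and 10.6 and 7.47 at 48 h (1.12 ± 0.40, adjusted p = 0.0981), and in both lines replicate 1 exceeded replicate 2 in every group. IDUA overlaps SLC26A1 on the opposite strand. HEXA, a subunit of beta-hexosaminidase, had tight pairs, at 71.7 and 71.9 FPKM in COLO858 DMSO and 110 and 117 at 48 h (0.65 ± 0.12, adjusted p = 0.0149), and at 229 and 230 in MMACSF DMSO and 335 and 319 at 48 h (0.51 ± 0.098, adjusted p = 0.0187). GUSB (beta-glucuronidase) lay lower in both lines, at 53.9 and 45.3 FPKM in COLO858 DMSO, 36.9 and 33.7 at 24 h, and 36.7 and 35.0 at 48 h, and at 32.6 and 27.0, 24.0 and 21.2, and 27.7 and 23.1 FPKM in MMACSF. It changed by -0.48 and -0.45 in COLO858, and by -0.38 and -0.22 in MMACSF, none of them past 0.05.

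NEU1, the lysosomal sialidase, was listed at 0 in all 12 libraries (GRCh37 chr6:31825436-31830682). The same held for 30 of 30 protein-coding genes of the tables that lie within 200 kb of it, and 4302 genes of the tables were at 0 throughout. NEU1 is therefore named without a level, and nothing is read from the 0.

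Cathepsins showed changes in both directions. Of 9 measured proteases in COLO858, 1 was called higher at 24 h (CTSF), and 1 higher and 1 lower at 48 h (CTSF and CTSZ). Of 10 in MMACSF, 2 were called higher at 24 h (CTSF and CTSK), and 1 higher and 1 lower at 48 h (CTSF and CTSB). Cathepsin F (CTSF), a cysteine protease (GRCh37 chr11:66330935-66336350), was the 1 member called higher in both lines at both times. It stood at 20.9 and 17.8 FPKM in COLO858 DMSO, 44.4 and 39.6 at 24 h, and 61.9 and 51.5 at 48 h, with changes of 1.08 ± 0.16 (limma, adjusted p = 0.00990) and 1.50 ± 0.16 (adjusted p = 0.00427). In MMACSF it stood at 47.9 and 39.7 FPKM in DMSO, 125 and 108 at 24 h, and 169 and 138 at 48 h, with changes of 1.39 ± 0.17 (adjusted p = 0.00653) and 1.79 ± 0.17 (adjusted p = 0.00269). The mean at 48 h was thus 2.93 times that of DMSO in COLO858 and 3.51 times in MMACSF. Subtracting the MMACSF change from that of COLO858 gave -0.29 ± 0.23 at 48 h (adjusted p = 0.503).

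Cathepsin Z (CTSZ), a carboxypeptidase (GRCh37 chr20:57560741-57583293), was the most abundant member of untreated COLO858 and fell there. It stood at 1401 and 1098 FPKM in DMSO, 561 and 464 at 24 h, and 418 and 328 at 48 h, which left 0.298 of the DMSO mean. The change was -1.28 ± 0.20 at 24 h (limma, adjusted p = 0.0103) and -1.74 ± 0.20 at 48 h (adjusted p = 0.00467). In MMACSF the libraries overlapped, at 381 and 288 FPKM in DMSO, 316 and 256 at 24 h, and 314 and 245 at 48 h. The difference between lines at 48 h was -1.49 ± 0.31 (adjusted p = 0.0141), past 0.05 and short of 0.01.

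Cathepsin B (CTSB), an abundant cysteine protease, fell in MMACSF and stayed level in COLO858. The MMACSF libraries were at 416 and 471 FPKM in DMSO, 221 and 245 at 24 h, and 191 and 219 at 48 h, with changes of -0.92 ± 0.13 (limma, adjusted p = 0.0105) and -1.11 ± 0.13 (adjusted p = 0.00528). In COLO858 all 6 libraries lay between 110 and 131 FPKM, and the changes were -0.00 and 0.05 with a standard error of 0.14. Cathepsin K (CTSK), a collagen-degrading protease, was at 183 and 204 FPKM in MMACSF DMSO, 388 and 443 at 24 h, and 293 and 328 at 48 h, with changes of 1.10 ± 0.13 (adjusted p = 0.00646) and 0.68 ± 0.13 (adjusted p = 0.0186). In COLO858 CTSK was near the limit of 1 FPKM, from 0.848 to 2.08 FPKM.

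Further proteases were higher in COLO858 without passing 0.01. Cathepsin A (CTSA), the protective protein of the sialidase complex, stood at 210 and 153 FPKM in COLO858 DMSO, 454 and 373 at 24 h, and 512 and 390 at 48 h, with changes of 1.19 ± 0.23 (limma, adjusted p = 0.0183) and 1.31 ± 0.23 (adjusted p = 0.0140). Its replicates differed more than those of PSAP, and it overlaps NEURL2 and PLTP on the opposite strand. TPP1, a tripeptidyl peptidase, changed by 0.74 and 0.76 in COLO858 (adjusted p = 0.0123 and 0.0114) and by 0.57 and 0.44 in MMACSF (adjusted p = 0.0388 at 24 h). Cathepsin D (CTSD), the main aspartic protease, was at 208 and 153 FPKM in COLO858 DMSO, 303 and 210 at 24 h, and 315 and 233 at 48 h, and replicate 1 exceeded replicate 2 in every group. The fitted values came to 0.50 ± 0.27 and 0.60 ± 0.27 for COLO858, with 0.10 ± 0.25 and -0.09 ± 0.25 for MMACSF, none past 0.05. The MMACSF libraries of CTSD were at 1379 and 1092 FPKM in DMSO, 1621 and 1063 at 24 h, and 1259 and 1050 at 48 h.

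**Figure D2:**
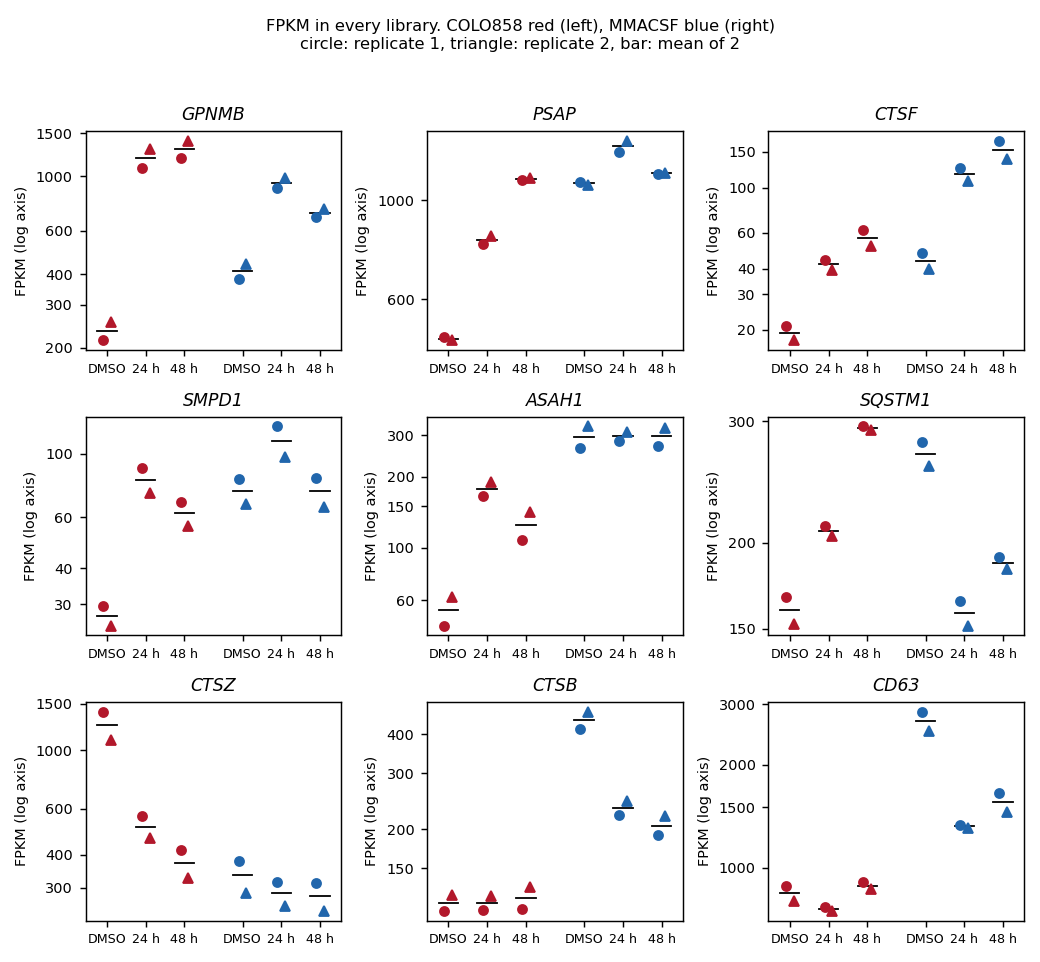
FPKM on a log axis in each library for 9 members, with COLO858 in red at left and MMACSF in blue at right of each panel, circles for replicate 1, triangles for replicate 2, and a bar at the mean of 2. In COLO858, GPNMB, PSAP, CTSF, SMPD1, and ASAH1 lay above and CTSZ below DMSO without overlap, whereas CTSB and CD63 fell in MMACSF, CD63 in COLO858 lay between 749 and 909 FPKM, and SQSTM1 went in opposite directions.

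For the V-ATPase, 12 subunits were measured in both lines, and 0 were called at 0.01 in any comparison with DMSO. In COLO858, 9 of 12 lay above DMSO at 24 h, with a median change of 0.57, and 9 of 12 at 48 h, with a median of 0.41, where 53.8% and 48.7% of all genes lay above 0. At the 0.05 threshold 3 were higher at 24 h (12.4% of all genes), and 4 were higher and 1 lower at 48 h (12.3% and 13.7%). In MMACSF 5 of 12 lay above DMSO at 24 h, with a median of -0.06, and 1 of 12 at 48 h, with a median of -0.17, where 55.8% and 54.6% of genes lay above 0, and at 0.05 1 was lower at 24 h and 2 at 48 h (10.2% and 12.5% of genes). Rescaling the libraries by median ratios left the counts above DMSO and the signs of these medians as they were.

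Within the V1 sector, the catalytic subunit ATP6V1A stood at 16.2 and 24.8 FPKM in COLO858 DMSO, 34.4 and 48.3 at 24 h, and 29.6 and 39.4 at 48 h. Both treated pairs lay above the DMSO pair, but the replicates lay apart, and its changes were 0.99 and 0.74. ATP6V1D, of the rotor shaft, had the tighter values, at 39.0 and 48.9 FPKM in DMSO, 67.4 and 76.1 at 24 h, and 65.3 and 79.9 at 48 h, with changes of 0.70 ± 0.18 (limma, adjusted p = 0.0428) and 0.71 ± 0.18 (adjusted p = 0.0410). In MMACSF the fitted changes of the 7 V1 subunits at 48 h ran from -0.54 for ATP6V1E1 (adjusted p = 0.0304) to -0.00 for ATP6V1G1, whose libraries overlapped those of DMSO.

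Within the V0 sector, ATP6V0A1 and ATP6V0D1 were higher and ATP6V0B was lower in COLO858. ATP6V0A1, of the proton path, was at 21.0 and 20.6 FPKM in DMSO, 35.1 and 38.3 at 24 h, and 30.7 and 34.4 at 48 h, with changes of 0.79 ± 0.13 (limma, adjusted p = 0.0134) and 0.62 ± 0.13 (adjusted p = 0.0265). In MMACSF it was at 53.5 and 55.4 FPKM in DMSO and at 48.2 to 49.9 in the 4 treated libraries. ATP6V0D1 was at 66.5 and 55.7 FPKM in COLO858 DMSO, 115 and 95.4 at 24 h, and 113 and 98.1 at 48 h, with changes of 0.77 ± 0.17 and 0.78 ± 0.17 (adjusted p = 0.0267 and 0.0269). In MMACSF it was at 99.4 and 85.2 FPKM in DMSO, 90.0 and 90.7 at 24 h, and 86.4 and 74.5 at 48 h, and the groups overlapped.

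ATP6V0B, a proteolipid subunit, was lower in both lines. In COLO858 it ran against most of the others, while in MMACSF it had the largest fall among subunits that mostly lay below DMSO. It was at 206 and 166 FPKM in COLO858 DMSO, 156 and 129 at 24 h, and 126 and 105 at 48 h (-0.68 ± 0.18 at 48 h, limma adjusted p = 0.0487). In MMACSF it was at 127 and 107 FPKM in DMSO, 82.1 and 66.2 at 24 h, and 73.7 and 66.9 at 48 h (-0.65 ± 0.16 and -0.72 ± 0.16, adjusted p = 0.0406 and 0.0265). The accessory subunit ATP6AP1 was at 81.1 and 63.3 FPKM in COLO858 DMSO, 108 and 97.0 at 24 h, and 120 and 104 at 48 h, and at 70.7 and 59.8, 79.3 and 69.1, and 83.8 and 69.5 FPKM in MMACSF, with changes of 0.51 and 0.63 in COLO858 (adjusted p = 0.0479 at 48 h) and of 0.18 and 0.23 in MMACSF. For ATP6V0C the replicates lay far apart, with replicate 1 above replicate 2 in every group, and no change from DMSO passed 0.05. It was at 329 and 209 FPKM in COLO858 DMSO, 332 and 182 at 24 h, and 347 and 206 at 48 h. In MMACSF it was at 223 and 144, 180 and 87.3, and 178 and 107 FPKM. The treated means were 0.954 and 1.03 times DMSO in COLO858, and 0.729 and 0.780 times in MMACSF.

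**Figure D3:**
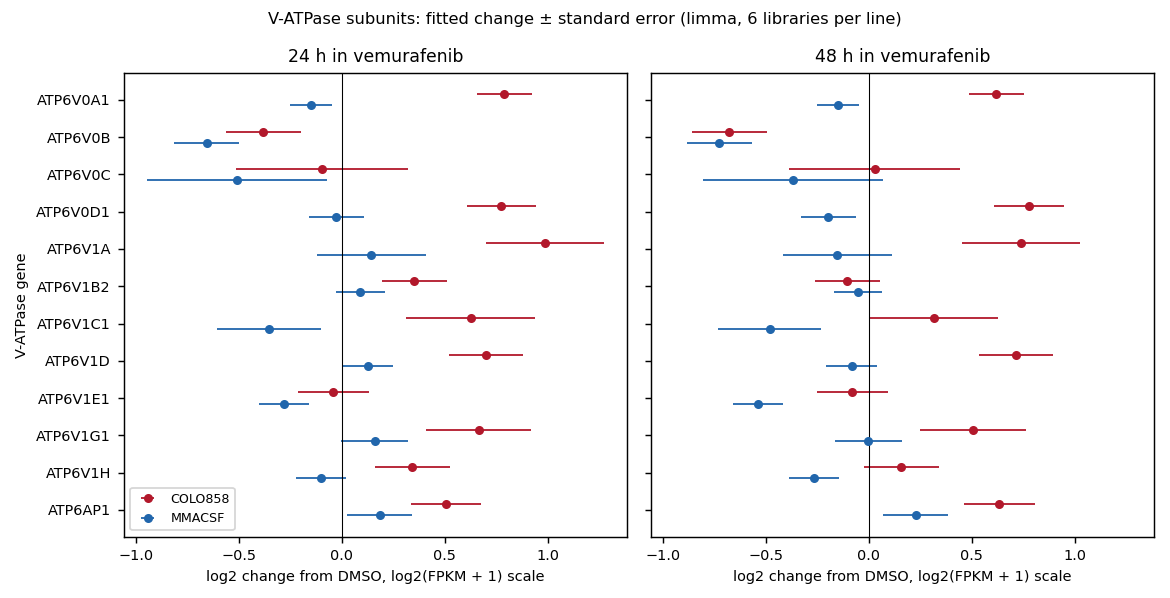
The x axis gives the fitted change of 12 V-ATPase genes from DMSO on the log2(FPKM + 1) scale at 24 h (left) and 48 h (right), with COLO858 in red, MMACSF in blue, and bars of 1 standard error from limma. At 24 h the COLO858 point lies to the right of the MMACSF point for 12 of 12 genes, and at 48 h for 11 of 12.

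GPNMB, SQSTM1, and GRN are the members that lie outside the digestive machinery. GPNMB, a membrane glycoprotein of melanosomes and lysosomes (GRCh37 chr7:23275586-23314727), was the member with the highest change in COLO858. It stood at 215 and 256 FPKM in DMSO, 1086 and 1296 at 24 h, and 1192 and 1391 at 48 h, which made it the most abundant member at both times, at 5.06 and 5.48 times its DMSO mean. The changes were 2.33 ± 0.16 (limma, adjusted p = 0.00123) and 2.45 ± 0.16 (adjusted p = 0.00115). In MMACSF it was at 382 and 440 FPKM in DMSO, 898 and 982 at 24 h, and 684 and 735 at 48 h, with changes of 1.19 ± 0.13 (adjusted p = 0.00479) and 0.79 ± 0.13 (adjusted p = 0.0109). Of the melanocyte lineage markers, 4 of 7 tested were called higher in COLO858 at each time, beside 4.11% and 4.74% of all genes. In MMACSF 1 of 8 was called higher at 24 h and 3 of 8 at 48 h, beside 2.22% and 3.42%, with 0 lower in either line. The 4 in COLO858 included S100B, which the paper counts among neurogenesis genes. The summed level of the 8 markers went from 702 to 717 FPKM in COLO858 DMSO to 3922 to 4158 at 24 h and 4144 to 4149 at 48 h. In MMACSF that sum went from 11160 to 11373 FPKM to 15589 to 16776 and 16831 to 17555, higher at 48 h than at 24 h, while GPNMB was lower at 48 h than at 24 h there. The highest level of a single marker in any library was 3041 FPKM in COLO858 and 11738 FPKM in MMACSF, so these sums mostly follow the abundant markers. The markers did not all go 1 way, as TYR in COLO858 had a change of -0.21 at 48 h and S100B in MMACSF of -0.28. The part of the lineage markers in the result for GPNMB was not tested.

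SQSTM1 (p62), the receptor that carries ubiquitinated cargo into autophagosomes (GRCh37 chr5:179233398-179265078), went in opposite directions in the 2 lines. In COLO858 it was at 167 and 152 FPKM in DMSO, 211 and 204 at 24 h, and 295 and 292 at 48 h. In MMACSF it was at 280 and 258 FPKM in DMSO, 165 and 152 at 24 h, and 190 and 183 at 48 h. Neither line had any overlap between treated and DMSO libraries. The change was 0.38 ± 0.11 and then 0.88 ± 0.11 in COLO858 (adjusted p = 0.00620 at 48 h in limma), and -0.76 ± 0.11 and then -0.52 ± 0.11 in MMACSF (adjusted p = 0.0102 and 0.0232). SQSTM1 overlaps MGAT4B on the opposite strand, and the share of reads from each strand is not known. Progranulin (GRN), a secreted glycoprotein that is cleaved in the lysosome, was at 108 and 86.2 FPKM in COLO858 DMSO and 215 and 175 at 48 h (1.00 ± 0.19, adjusted p = 0.0196), and at 243 and 198 in MMACSF DMSO and 361 and 325 at 48 h, a change of 0.64.

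The change in COLO858 was compared with that in MMACSF by an interaction term in limma over all 12 libraries, where a positive difference means a more positive change in COLO858. At 24 h, 3 of 51 members had a higher change in COLO858 and 0 a lower one, against 1.78% and 1.93% of 13595 genes. At 48 h, 6 had a higher change and 0 a lower one, against 4.19% and 3.30%. The median difference was 0.26 at 24 h and 0.32 at 48 h, against -0.01 and -0.04 over all genes, and 36 (70.6%) and 33 (64.7%) members lay above 0 against 48.7% and 46.4% of genes.

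At 24 h the called differences were those of ASAH1, at 1.70 ± 0.27 (limma, adjusted p = 0.00692), SQSTM1, at 1.15 ± 0.13 (adjusted p = 0.00157), and ATP6V0A1, at 0.94 ± 0.13 (adjusted p = 0.00450). At 48 h the largest were those of GPNMB, at 1.66 ± 0.20 (adjusted p = 0.00109), SQSTM1, at 1.40 ± 0.13 (adjusted p = 0.000293), CTSB, at 1.16 ± 0.19 (adjusted p = 0.00431), and PSAP, at 1.11 ± 0.11 (adjusted p = 0.000396). CD63, at 0.86 ± 0.15 (adjusted p = 0.00659), and ATP6V0A1, at 0.77 ± 0.13 (adjusted p = 0.00650), completed the 6. These 7 genes reached the difference by different routes: PSAP and ASAH1 rose in COLO858 over smaller changes in MMACSF, CTSB and CD63 fell in MMACSF over level values in COLO858, GPNMB was higher in both and by more in COLO858, and SQSTM1 and ATP6V0A1 lay on opposite sides of DMSO. Without any 1 of the libraries, SQSTM1 at 24 h and GPNMB, PSAP, and SQSTM1 at 48 h were called in each of the 8 fits of a comparison. CTSB and ATP6V0A1 were called at 48 h only when replicate 1 of COLO858 at 48 h was left out, and ASAH1 and CD63 in none of these fits.

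The direction of change was shared more at 24 h than at 48 h by count, which was not tested. Of the 50 members measured in both lines, 30 lay above DMSO in both at 24 h, 11 below in both, and 9 above in COLO858 and below in MMACSF. At 48 h, 20 lay above in both, 9 below in both, 16 above in COLO858 and below in MMACSF, and 5 the reverse.

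**Figure D4:**
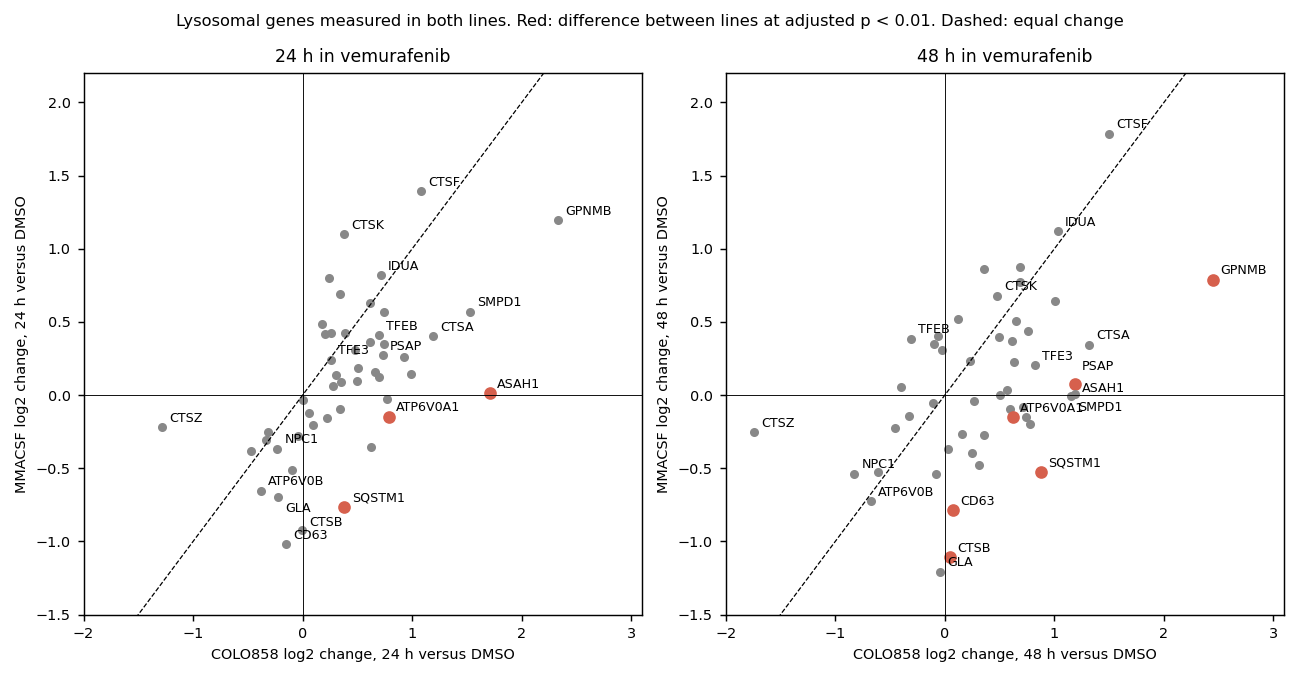
Each point is 1 of the 50 members measured in both lines, with the log2 change from DMSO in COLO858 on the x axis and in MMACSF on the y axis, at 24 h (left) and 48 h (right). Points on the dashed line changed equally, red points differed between lines at adjusted p < 0.01, and red points lie below the line, on the side of COLO858.

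By level within a line, the order of the members also moved. In COLO858 DMSO the highest means were those of CTSZ, at 1250 FPKM, CD63, at 844, and PSAP, at 489.9, and at 48 h they were those of GPNMB, at 1291, PSAP, at 1116, and CD63, at 887. CTSZ then stood at 373 FPKM. In MMACSF the same 3 genes led in DMSO and at 48 h, namely CD63, CTSD, and PSAP, at 2683, 1236, and 1092 FPKM and then at 1556, 1154, and 1149 FPKM. The FPKM of the members summed to 6209 and 5645 in COLO858 DMSO, 7444 and 7298 at 24 h, and 7942 and 7812 at 48 h, while in MMACSF the sums were 11178 and 10392, 10996 and 10325, and 10440 and 9786. The treated sums lay above the DMSO sums in COLO858, and they overlapped the DMSO sums at both times in MMACSF.

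Other genes of the pathway were read from lists that hold no member. Of 30 other lysosomal enzymes, 25 were tested in COLO858 and 26 in MMACSF, and at 48 h 2 were called higher and 0 lower in COLO858, and 1 higher and 2 lower in MMACSF, with medians of 0.11 and 0.12. These counts, and those of the lists that follow, stand beside 4.74% of all genes called higher and 4.73% lower in COLO858 at 48 h, and 3.42% and 5.41% in MMACSF, and are near those shares where a list has few calls. ARSA (arylsulfatase A) rose in COLO858, from 3.56 and 2.97 FPKM to 10.0 and 10.0 (1.37 ± 0.17, limma adjusted p = 0.00617). CTSO, a cysteine protease, rose in MMACSF, from 1.56 and 1.89 FPKM to 6.04 and 7.39 (1.50 ± 0.16, adjusted p = 0.00413), and CTSL2 (cathepsin V) fell there, from 8.18 and 9.77 FPKM to 1.36 and 1.56 (-2.01 ± 0.19, adjusted p = 0.00278). Each went the same way in the other line at 48 h, short of 0.01. ARSA changed by 0.92 ± 0.25 in MMACSF (limma, adjusted p = 0.0519). In COLO858 CTSO changed by 0.82 ± 0.20 (adjusted p = 0.0373) and CTSL2 by -0.88 ± 0.24 (adjusted p = 0.0516). The difference between lines was not called for ARSA, CTSO, or CTSL2 at either time.

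Of 21 other lysosomal membrane proteins, 19 were tested in each line, and 3 were called higher and 1 lower in COLO858 and 2 higher and 0 lower in MMACSF at 48 h. SIDT2, a lysosomal RNA transporter, rose in MMACSF from 11.6 and 11.1 FPKM to 69.6 and 68.3 at 24 h and 51.4 and 46.6 at 48 h (2.01 ± 0.11 at 48 h, limma adjusted p = 0.000725). In COLO858 SIDT2 was at 4.04 and 3.33 FPKM in DMSO, 10.5 and 11.7 at 24 h, and 9.69 and 7.93 at 48 h, and its 24 h change of 1.37 was smaller than that in MMACSF by 1.13 (adjusted p = 0.00797 for the difference). LAPTM4A rose in COLO858, from 65.8 and 69.1 FPKM to 132 and 154 (1.07 ± 0.13, adjusted p = 0.00590), and CD68 fell there, from 11.8 and 14.2 FPKM to 3.86 and 5.03 (-1.37 ± 0.20, adjusted p = 0.00963).

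Of 13 other V-ATPase subunits, mostly tissue-restricted forms, 8 and 10 were tested, and the 1 call was the fall of ATP6V0D2 in MMACSF, from 7.89 and 9.47 FPKM to 0.727 and 1.17 at 24 h and 0.332 and 0.551 at 48 h (-2.75 ± 0.20, limma adjusted p = 0.00127). Of 14 genes of mannose 6-phosphate sorting, the route by which hydrolases reach the lysosome, AP1S1 was the 1 called at 48 h, in COLO858, where it fell from 236 and 237 FPKM to 100 and 98.8 (-1.24 ± 0.11, adjusted p = 0.00228). In MMACSF AP1S1 was lower too, by -0.63 ± 0.11 at 24 h and -0.72 ± 0.11 at 48 h (limma, adjusted p = 0.0182 and 0.0103). Its difference between lines was not called at either time. SORT1 of the same list was called higher in COLO858 at 24 h (1.95 ± 0.23, limma adjusted p = 0.00487). At 48 h its change there was 1.51 ± 0.23 (adjusted p = 0.0103), short of 0.01. Of 19 genes of mTORC1 control at the lysosome, which keep TFEB and TFE3 out of the nucleus when nutrients are ample, limma called 0 in either line at either time, and 6 in each line had an unadjusted p under 0.05 at 48 h, beside 39.3% of all genes in COLO858 and 38.9% in MMACSF. Of 41 autophagy genes, 38 were tested, and 3 were called higher and 0 lower in COLO858 and 2 higher and 2 lower in MMACSF at 48 h. MAP1LC3A rose in COLO858, from 27.3 and 23.6 FPKM to 89.2 and 75.8 (1.66 ± 0.18, adjusted p = 0.00414), and in MMACSF it was listed at 0 in 5 of 6 libraries. VPS39 rose in MMACSF (1.02 ± 0.14, adjusted p = 0.00697) and WIPI1 fell there (-1.13 ± 0.12, adjusted p = 0.00356). In COLO858 both went the same way at 48 h, short of 0.01. VPS39 changed there by 0.86 ± 0.14 (limma, adjusted p = 0.0121) and WIPI1 by -0.56 ± 0.14 (adjusted p = 0.0406). The difference between lines was called for WIPI1 at 24 h (1.11, adjusted p = 0.00444), and for neither gene at 48 h.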

How the data were processed

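RNA of 2 melanoma cell lines was measured in 12 libraries, 2 plates for each line and condition. Per the paper's methods, stranded mRNA libraries with ERCC spike-in were sequenced as single 50-base reads, which the authors mapped with TopHat, run at its defaults, to hg19 and quantified with Cuffdiff. The authors deposited 1 table of FPKM per line, which hold no read counts, so depth is unknown and its precision cannot be given. Annotation, versions, and the strand setting and library scaling of Cuffdiff are not given in the sources used here. Samples were grouped by the labels, and all columns were used.

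Each table was fitted with limma 3.58.1 in R 4.3.3 on log2(FPKM + 1) with a mean-variance trend, for 3 groups, over genes whose mean reached 1 FPKM in a group. The pseudocount makes changes of low genes appear smaller. Line differences were an interaction in a fit of 6 groups. P-values are two-sided and Benjamini-Hochberg adjusted over all genes tested, with the threshold at 0.01. The script was tested on simulated data. The members and lists were chosen with earlier results of these data known. The genes named by rule were the factors, MITF, LAMP1, MCOLN1, GPNMB, SQSTM1, CTSD, members called with a change or line difference of at least 1, the members with the highest and lowest change of each role at 48 h, and the called list genes with the highest and lowest change at 48 h. Other genes were named after their values were seen. Gene positions are from GENCODE v44 on GRCh37, and promoters from RefSeq on GRCh38.p14. Alternatives were 0.1 FPKM added, no minimum, a minimum of 10 FPKM, median-ratio rescaling, no trend, small RNA genes left out, the replicate block, a threshold of 0.05, and each library left out.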

Additional observations from a re-analysis of the deposited data

Results flagged for a closer look

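For 7 members the change from DMSO differed between the cell lines in a limma interaction at an adjusted p < 0.01, in 9 comparisons in all, each as the log2 change in COLO858 minus that in MMACSF. At 24 h these were ASAH1, at 1.70, SQSTM1, at 1.15, and ATP6V0A1, at 0.94. At 48 h these were GPNMB, at 1.66, SQSTM1, at 1.40, CTSB, at 1.16, PSAP, at 1.11, CD63, at 0.86, and ATP6V0A1, at 0.77. All 9 were positive. With 2 libraries per group, no group was large enough to be searched for an outlying library. The lines also differed in culture medium and in the level of melanocyte lineage markers, whose part in these differences was not tested.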

How the results depend on the processing

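No member's fitted change turned its direction past the threshold under any alternative run. Members called at an adjusted p < 0.01 in limma numbered 5 in COLO858 at 24 h, and 3 with no minimum, 3 without the trend, 3 after median-ratio rescaling, and 8 with small RNA genes left out. All genes called were then 5.59%, 9.70%, 11.9%, and 14.1%. At 48 h in COLO858 the number was 5, and 10 with small RNA genes left out (13.9% of all genes). In MMACSF at 48 h it was 3, and 5 with 0.1 FPKM added (9.22% of all genes) and 6 with small RNA genes left out (13.9%). For the line difference at 24 h it was 3, and 5 after rescaling (4.39% of all genes) and 5 with small RNA genes left out (4.26%). At a threshold of 0.05 the numbers were 14, 20, and 1 in COLO858 (24 h, 48 h, and 48 h against 24 h), 10 and 13 in MMACSF, and 7 and 13 for the line differences, beside 25.8%, 26.0%, 6.37%, 20.3%, 24.1%, 9.03%, and 15.6% of all genes in the same order. Leaving out 1 library gave 0 to 0 members in each comparison within a line, 1 to 1 for the line difference at 24 h, and 3 to 5 at 48 h. In these fits the lone library of a group is assumed to vary like the other groups, and all genes called fell as well, to 66 to 92 and 111 to 138 in COLO858 and 45 to 70 and 85 to 125 in MMACSF.

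With the replicate number as a block, members called numbered 30, 34, and 14 in COLO858, 18 and 21 in MMACSF, and 19 and 28 for the line differences. The share of all genes called rose as well, to 45.0%, 43.7%, and 18.0% in COLO858, 26.1% and 30.1% in MMACSF, and 17.6% and 25.3% for the line differences. The labels do not say what the numbers pair. Deviations of same-numbered libraries correlated at 0.196 to 0.211 in COLO858 and 0.0628 to 0.113 in MMACSF over all genes, and at 0.753 to 0.779 and 0.590 to 0.673 with small RNA genes left out. Over the members these correlations were 0.898 to 0.946 and 0.774 to 0.889. With 2 libraries in a group the deviations of both mirror each other, so each correlation rests on a single contrast, and no source used here ties a number to a batch or day. The fits without the block were kept as the reported ones, and the number of calls depends on this choice. Depth is unknown in FPKM, so counting error could not be separated from the spread of 2 plates.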
